A study of Mus musculus with 416 samples.

Results

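Striatum libraries high in the transthyretin gene Ttr (ENSMUSG00000061808), a marker of the choroid plexus, were set against libraries low in it. A library was placed in the high-Ttr group when Ttr reached 100 CPM (a gene's read count scaled to a library total that is the same for every sample) and in the low-Ttr group when Ttr was under 10 CPM. Of 416 libraries, 49 were high-Ttr, 230 were low-Ttr, and the rest lay between the limits and belonged to neither group. Because Ttr itself made the groups, its values are a description, and so are the values of the other choroid plexus genes between these groups.

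The series profiled the striatum of drug-naïve J:DO (Diversity Outbred) mice, an outbred stock in which each animal carries its own mix of founder genomes. Every library comes from 1 animal, labelled female or male and generation 21, 22 or 23, and no treatment or engineered allele is given. The high-Ttr group held 19, 14 and 16 libraries of generations 21, 22 and 23 (38.8%, 28.6% and 32.7% of the group), and these generations made up 23.9%, 31.3% and 44.8% of the low-Ttr group. Female libraries were 55.1% of the high-Ttr group, against 45.7% of the low-Ttr group. Per the labels' protocols, brains were split into hemispheres, and striatum, hippocampus and prefrontal cortex were taken out under a dissection scope. The age of the animals is not given in the sources used here.

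The choroid plexus is a fringe of tissue that hangs in the brain ventricles and makes most of the cerebrospinal fluid. It has a single layer of epithelial cells joined by tight junctions, over a core of fibroblasts, macrophages and capillaries with pores. The epithelium moves ions, water, vitamins and hormones between blood and fluid, and its most familiar product is transthyretin, a carrier of thyroid hormone and of the retinol-binding protein. The lateral ventricle, which holds part of this tissue, borders the striatum.

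Some libraries stood apart before any comparison was made. Total counts ran from 20331813 to 58901441 in the high-Ttr group (median 45096740) and from 23278130 to 70831399 in the low-Ttr group (median 42996674). A difference in mean totals did not pass the test (44608477 against 43376955 counts, adjusted p = 0.378, two-sided permutation test with 100000 resamples, adjusted over 3 measures), nor did one in the share of mitochondrially encoded counts (4.63% against 4.61%, adjusted p = 0.83). High-Ttr libraries had more genes with a count, 26975 ± 514 against 26675 ± 419 in low-Ttr libraries (mean ± SD, adjusted p = 6e-05 by the same test). These permutation tests held no term for generation, whose shares differed between the groups, and none for the total count. Outlying libraries, with a small total or a poor correlation with the rest of the series, made up 22 of the 49 high-Ttr and 8 of the 230 low-Ttr libraries. They included the 13 libraries of highest Ttr, and their median Ttr among high-Ttr libraries was 4251 CPM, against 1738 CPM in those not outlying, so leaving them out also lowers the Ttr of the high-Ttr group. Xist went against the sex label in 3 high-Ttr and 14 low-Ttr libraries. The markers of the labelled tissue were present in both groups: summed over the 20 listed genes of spiny projection neurons, the main neurons of the striatum, they gave 6357 CPM or more in high-Ttr and 3072.5 CPM or more in low-Ttr libraries.

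Ttr ran from 145.97 to 14201 CPM in the high-Ttr libraries, with a median of 2637, and from 0.65 to 9.88 CPM in the low-Ttr libraries, with a median of 4.94. In 36 of the high-Ttr libraries it passed 1000 CPM. At the median high-Ttr library it took 0.264% of the total count, and at the highest one, male generation 21 replicate 26, it took 1.42%. The next highest library held 6284 CPM, so that 1 library stood well above the others.

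The limits fell in different parts of the distribution. Just over the upper limit the libraries held 145.97, 176.2 and 234.9 CPM, and just under it they held 96.7, 96.1 and 93.2 CPM. At the lower limit no gap was present: the nearest libraries held 10.1 CPM above it and 9.88 CPM below it. Ttr thus ran on without a break from the low-Ttr libraries into the libraries between the limits, whose median was 17.7 CPM.

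High-Ttr libraries were found in every generation and in both sexes. They were 12.7% of all libraries of generation 21, 11.8% of generation 22 and 10.9% of generation 23. Among high-Ttr and low-Ttr libraries alone a difference in the share by generation did not pass the test (two-sided Fisher's exact test, p = 0.1), nor did one by sex (p = 0.271, odds ratio 1.46 for female over male). With an upper limit of 50 CPM the generation test gave p = 0.0173. The libraries between the limits were spread less evenly, with 76, 33 and 28 in generations 21, 22 and 23.

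**Figure D1:**
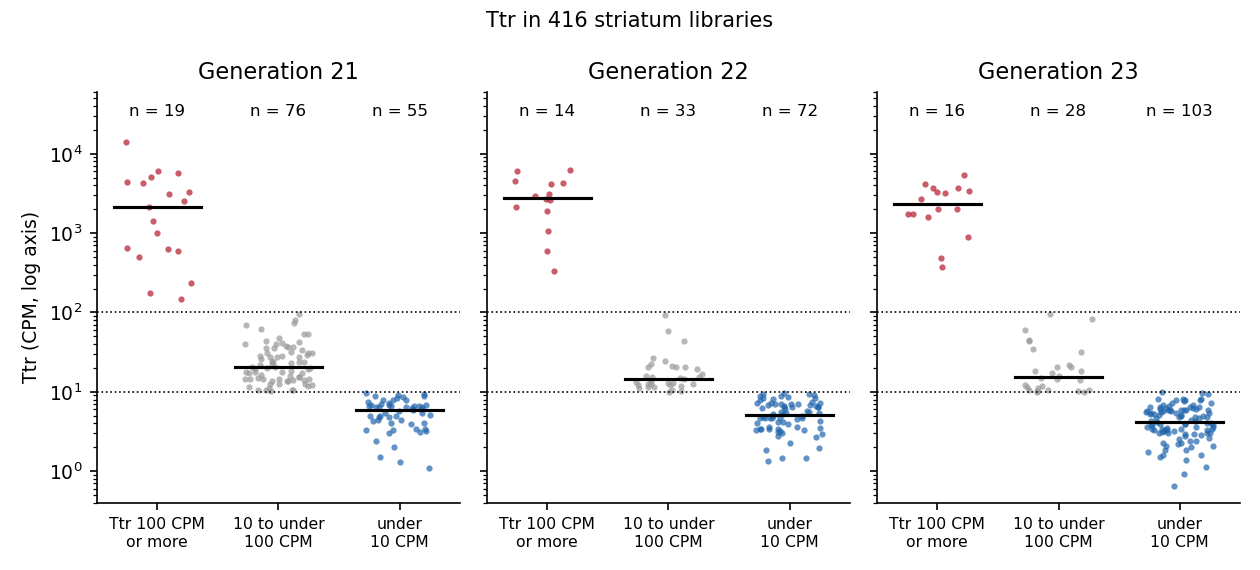
Ttr of each library in CPM on a log axis, in 1 panel per generation, with high-Ttr libraries on the left, libraries between the limits in the middle and low-Ttr libraries on the right. Dotted lines mark 10 and 100 CPM, black bars are medians, and the median of the high-Ttr libraries was 2144, 2783 and 2350 CPM in generations 21, 22 and 23.

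The epithelial genes of the choroid plexus were higher in high-Ttr libraries by widely differing amounts, and Tmem72 hardly differed. The list held 39 genes, of which Ttr was set aside and all 38 others passed the filter on low counts. Since a gene could pass this filter through the high-Ttr libraries alone, the counts below describe the list and support nothing. The median log2 difference between high-Ttr and low-Ttr libraries was 4.23 over the 38 genes, beside -0.0095 over all 22721 genes fitted. Summed without Ttr, the list gave 1484, 3924 and 15338 CPM at the lowest, median and highest high-Ttr library, against 1363, 1699 and 2100 CPM in the low-Ttr libraries, and 44 of 49 high-Ttr libraries lay above all low-Ttr ones. Much of the sum in low-Ttr libraries came from Tmem72, which hardly differed between the groups, so the sum does not measure choroid plexus RNA there. In bulk tissue, more cells of a type and more RNA per cell cannot be told apart.

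The transcription factors of this epithelium come first. Otx2 (ENSMUSG00000021848), a homeobox factor that the choroid plexus needs to form and to persist, had 0.931, 12.7 and 67.97 CPM at the lowest, median and highest high-Ttr library, against 0, 0.406 and 1.04 CPM in low-Ttr libraries. Lmx1a, a LIM-homeobox factor of the embryonic roof plate from which the tissue arises, had 0.116, 2.15 and 12.7 CPM against 0, 0.0201 and 0.238 CPM. Msx1, another homeobox factor of the dorsal midline, had 0.876, 8.29 and 55.6 CPM against 0.352, 0.978 and 1.99 CPM. For these 3 factors 48, 47 and 46 of the 49 high-Ttr libraries lay above every low-Ttr library.

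Promoters are shown for the list members whose 250 bases before the gene start hold the letters that OTX-type homeobox proteins are known to bind, TAATCC on either strand (GGATTA on the other strand). RefSeq promoters on GRCm38.p6 were read for 30 of the 39 members, with 41 promoters in all. Of these 41, 3 (7.32%) held the motif, beside 2054 of all 32851 promoters (6.25%). List promoters on a chromosome that was set aside were left out, a step not applied to the full set. The match is a description and not a binding site. The 3 promoters read 5′ to 3′ along the strand of the gene, with the motif in capitals. They are Otx2 itself at chr14:48665110-48665359 (minus strand), Mfrp, the gene of a frizzled-related membrane protein, at chr9:44101520-44101769 (plus strand), and Ace, the angiotensin-converting enzyme gene, at chr11:105967698-105967947 (plus strand). In Ace the motif starts 27 bases before the gene start, and in both others it lies farther from it.
Otx2: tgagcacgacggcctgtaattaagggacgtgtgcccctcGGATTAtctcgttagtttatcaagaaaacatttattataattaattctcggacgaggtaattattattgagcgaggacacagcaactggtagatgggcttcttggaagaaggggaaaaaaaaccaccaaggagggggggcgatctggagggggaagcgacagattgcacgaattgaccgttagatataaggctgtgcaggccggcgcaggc
Mfrp: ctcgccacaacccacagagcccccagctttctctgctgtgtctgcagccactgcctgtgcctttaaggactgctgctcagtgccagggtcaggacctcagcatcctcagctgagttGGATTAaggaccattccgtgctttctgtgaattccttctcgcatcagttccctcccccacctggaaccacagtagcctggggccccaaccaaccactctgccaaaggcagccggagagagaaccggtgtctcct
Ace: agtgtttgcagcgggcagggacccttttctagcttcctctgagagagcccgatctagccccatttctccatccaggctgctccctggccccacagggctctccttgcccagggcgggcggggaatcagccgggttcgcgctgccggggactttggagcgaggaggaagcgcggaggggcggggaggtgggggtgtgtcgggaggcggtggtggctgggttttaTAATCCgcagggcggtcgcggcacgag

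Genes of ion and water transport, the machinery that makes cerebrospinal fluid, included several that were close to 0 in low-Ttr libraries. Slc4a5 (ENSMUSG00000068323), a sodium bicarbonate cotransporter of the fluid-facing membrane, had 1.99, 31.8 and 219.6 CPM at the lowest, median and highest high-Ttr library, against 0, 0.215 and 0.549 CPM in low-Ttr libraries. Aqp1, the water channel of the same membrane, had 0.855, 16.8 and 150.1 CPM against 0, 0.153 and 0.607 CPM. Kcne2, an accessory subunit of potassium channels, had 0.693, 11.003 and 37.7 CPM against 0, 0.114 and 0.464 CPM. In none of these genes did the groups overlap. Such a separation was met in 9 of all 22721 genes fitted (0.0396%), and 8 of them were on the epithelium list: Aqp1, Cldn2, Enpp2, Folr1, Kcne2, Mfrp, Slc4a5 and Sostdc1. The ninth was Prr32. No gene had all high-Ttr libraries below all low-Ttr libraries.

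Other channels and exchangers were also found in the low-Ttr striatum, and there the groups overlapped. Kcnj13, an inward rectifier potassium channel, had 1.77, 17.7 and 99.9 CPM in high-Ttr libraries against 0.720, 1.56 and 2.40 CPM in low-Ttr libraries, and 46 of 49 lay above them all. Clic6, of the chloride intracellular channel family, had 12.0, 72.4 and 353.8 CPM against 0.913, 11.7 and 25.2 CPM. Car12, a membrane carbonic anhydrase, had 10.1, 84.7 and 281.6 CPM against 19.5, 38.6 and 68.7 CPM, so that the lowest high-Ttr library was below all low-Ttr libraries while 29 lay above all of them. Slc4a2, an anion exchanger, differed by a log2 of 1.70 ± 0.053 (SE), and Slc12a2, a sodium, potassium and chloride cotransporter, by 0.70 ± 0.038.

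Some transport genes differed little. Atp1b1, a subunit of the sodium pump, which sits in the fluid-facing membrane of this epithelium, had a median of 658 CPM in high-Ttr and 657 CPM in low-Ttr libraries. Kcna1, a potassium channel of axons, was lower by a log2 of -0.06. Over the whole list of 23 transport genes, all of which passed the filter, the median log2 difference was 0.96.

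Carriers of vitamins, hormones and solutes formed the next group, with 23 members fitted beside Ttr and a median log2 difference of 0.99. Folr1, the folate receptor that carries folate into cerebrospinal fluid, had 1.05, 15.6 and 120.3 CPM at the lowest, median and highest high-Ttr library, against 0, 0.228 and 0.715 CPM in low-Ttr libraries. Slc13a4, a sulfate transporter, had 2.08, 23.3 and 185.3 CPM against 0.329, 0.967 and 3.33 CPM. Slc31a1, a copper importer, had 15.8, 39.5 and 142.9 CPM against 12.5, 15.4 and 18.5 CPM, and 47 of 49 high-Ttr libraries lay above all low-Ttr ones. The reduced folate carrier Slc19a1 and the ascorbate transporter Slc23a2 differed less, by a log2 of 0.44 ± 0.036 and 0.35 ± 0.024.

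Rbp4, the secreted carrier of retinol that travels in plasma bound to transthyretin, had 6.20, 12.7 and 23.1 CPM in high-Ttr libraries, against 5.45, 13.7 and 22.8 CPM in low-Ttr libraries. The ranges of Rbp4 lay on top of each other, and its log2 difference was -0.14 ± 0.055.

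Genes of the epithelial barrier gave the single largest difference of the named genes. Cldn2, a pore-forming claudin of leaky epithelia, had 0.955, 18.2 and 120.6 CPM at the lowest, median and highest high-Ttr library, against 0, 0.0523 and 0.329 CPM in low-Ttr libraries, a log2 difference of 8.22 ± 0.099. Krt8 and Krt18, the keratin pair of simple epithelia, differed by 4.39 ± 0.114 and 4.44 ± 0.105. Ocln, a tight junction protein found in vessels too, differed by 0.81 ± 0.038.

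Barrier genes of the brain's own vessels did not share this pattern. Cldn5, the main claudin of brain endothelium, had 4.94, 11.3 and 18.9 CPM in high-Ttr against 5.89, 11.1 and 16.9 CPM in low-Ttr libraries, and Tjp1, a scaffold of tight junctions in many cells, had medians of 147.3 and 149.2 CPM. Of the 18 junction and keratin genes 15 passed the filter, with a median log2 difference of 0.79, or 0.46 without the outlying libraries. Cldn3, another claudin of this epithelium, did not pass it, with medians of 0.436 CPM in high-Ttr and 0.0397 CPM in low-Ttr libraries.

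Secreted products of the epithelium showed the same separation. Enpp2, which makes the signalling lipid lysophosphatidic acid, had 223.8, 1333 and 7112 CPM at the lowest, median and highest high-Ttr library, against 84.4, 141.98 and 203.9 CPM in low-Ttr libraries. Kl, the klotho gene, had 13.6, 169.03 and 967 CPM against 1.14, 4.19 and 21.8 CPM, and 46 of 49 high-Ttr libraries lay above all low-Ttr ones. Sostdc1, an antagonist of BMP and Wnt signals, had 1.13, 28.9 and 226.4 CPM against 0, 0.122 and 0.858 CPM. Enpp2 and Sostdc1 had no overlap between groups.

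Other secreted factors followed. Igf2, a growth factor made by the choroid plexus and by meningeal fibroblasts, had 17.9, 165.9 and 719.8 CPM in high-Ttr libraries, against 6.32, 14.2 and 35.3 CPM in low-Ttr libraries. Igfbp2, which binds insulin-like growth factors, differed by a log2 of 4.32 ± 0.094. Cst3, a protease inhibitor abundant in cerebrospinal fluid and made by many brain cells, had medians of 404.5 CPM in high-Ttr and 379.5 CPM in low-Ttr libraries and a log2 difference of 0.01. Of 18 secreted factors 16 were fitted, with a median log2 difference of 1.10.

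Receptors and membrane proteins of the epithelium made up the rest. Prlr, the prolactin receptor, had 4.51, 71.8 and 363.7 CPM at the lowest, median and highest high-Ttr library, against 0.165, 0.708 and 4.93 CPM in low-Ttr libraries. Htr2c, a serotonin receptor that striatal neurons also make, had 34.7, 141.9 and 330.2 CPM against 32.5, 71.8 and 114.3 CPM. Ace had 25.4, 96.9 and 403.05 CPM against 9.24, 30.6 and 117.2 CPM. For Prlr 48, for Htr2c 34 and for Ace 16 of the 49 high-Ttr libraries were above all low-Ttr libraries.

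Tmem72, a membrane protein gene known from kidney and choroid plexus, departed from the list. It had 945, 1360 and 1722 CPM in high-Ttr libraries, against 977, 1291 and 1724 CPM in low-Ttr libraries. The groups overlapped over their full range, the log2 difference was 0.09 ± 0.021, and no high-Ttr library lay above all low-Ttr libraries.

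**Figure D2:**
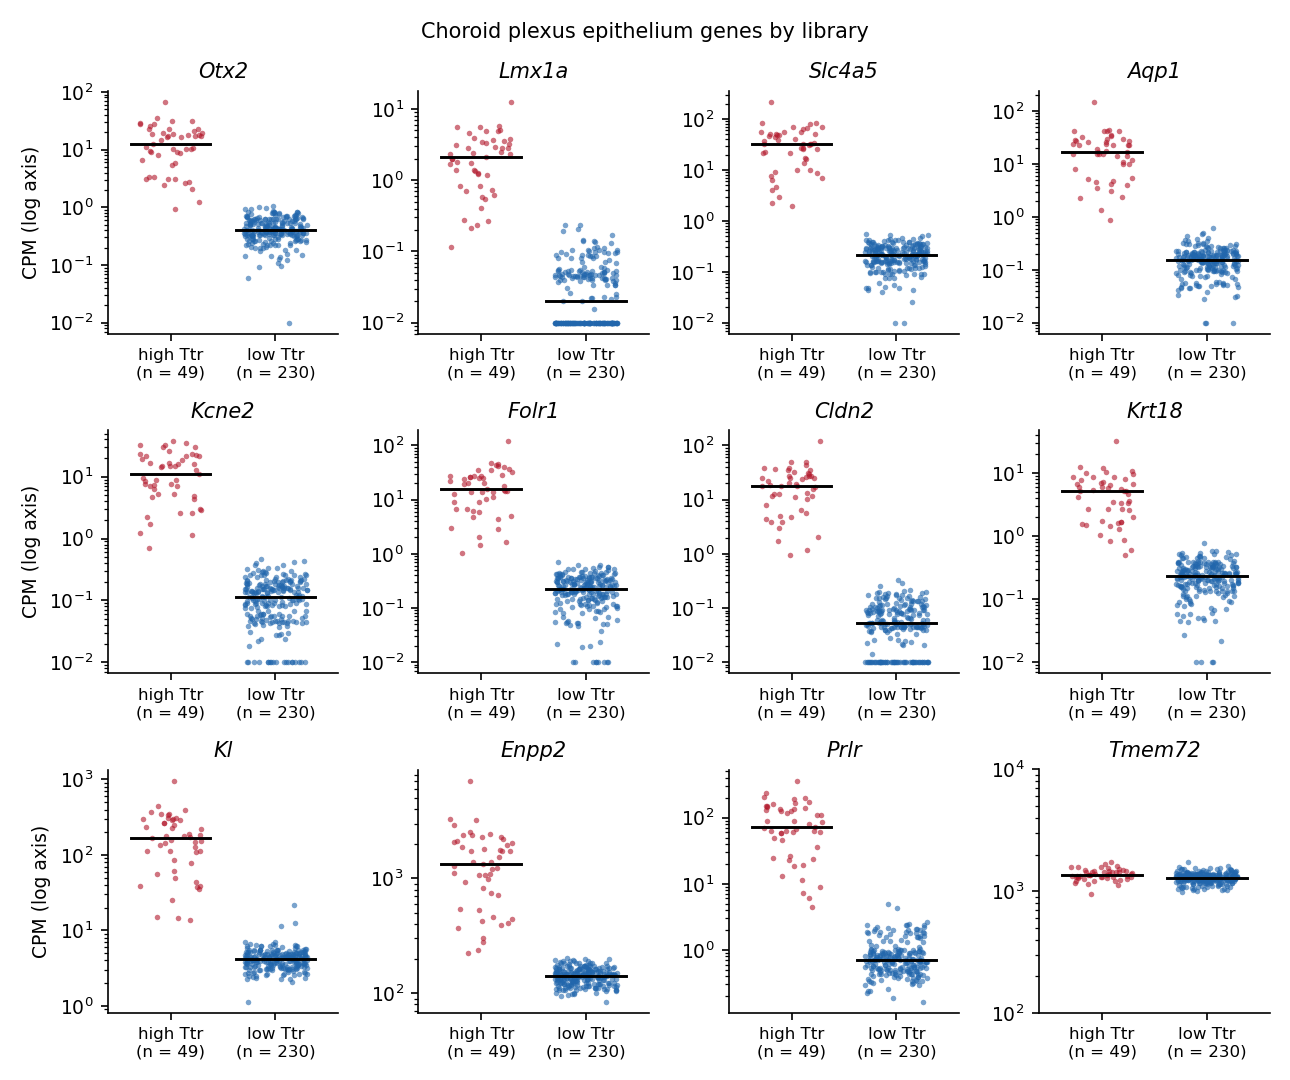
CPM of 12 epithelial genes on log axes, 1 point per library and black bars at the medians, with the 49 high-Ttr libraries on the left and the 230 low-Ttr libraries on the right of each panel; values under 0.01 CPM are drawn at 0.01. The groups stand apart for Slc4a5, Aqp1, Kcne2, Folr1, Cldn2 and Enpp2, overlap slightly for Otx2, Lmx1a, Krt18, Kl and Prlr, and coincide for Tmem72.

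Within the high-Ttr libraries the epithelial genes also followed Ttr from library to library. In a fit on log2 Ttr over these 49 libraries, with generation as a term, the median slope of the 37 list members fitted was 0.86 log2 units per log2 unit of Ttr, where 1 means strict proportion. The slope was 0.99 ± 0.02 (SE) for Slc4a5, 0.98 ± 0.023 for Aqp1, 0.91 ± 0.024 for Otx2, 0.74 ± 0.026 for Enpp2 and 0.06 ± 0.012 for Tmem72. These libraries were chosen on Ttr, so the slopes are descriptions.

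The ratio of each gene to Ttr was likewise stable for some genes and loose for others. Over the 36 libraries with at least 1000 CPM of Ttr, the level in excess of the low-Ttr median was taken for every 100 CPM of Ttr in excess. For Slc4a5 this excess was 1.26 CPM with quartiles of 1.21 and 1.35, and for Kl it was 6.67 CPM with quartiles of 6.16 and 7.19. For Sostdc1 it was 1.476 CPM with quartiles of 0.858 and 1.68, and for Lbp, a lipopolysaccharide-binding protein, it was 0.578 CPM with quartiles of 0.291 and 0.706. The upper over the lower quartile was thus 1.11 for Slc4a5, the smallest of the list, and 1.96 for Sostdc1, 2.43 for Lbp, 2.88 for Tmem72 and 3.37 for Slco1a5, an organic anion transporter of low count.

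The libraries between the limits gave a test that the grouping did not use. Of 19925 genes fitted there, 10 rose with log2 Ttr (0.0502%, edgeR quasi-likelihood test with generation as a term, Benjamini-Hochberg adjusted p under 0.05) and none fell, while 753 had an unadjusted p under 0.05; limma voom called 8 of the 10. Of the 10 genes 8 were on the epithelium list, of which 30 members were fitted. They were Slc4a5, F5, Kl, Folr1, Mfrp, Prlr, Col8a1 and 1500015O10Rik.

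Slc4a5 had the steepest slope of these 8, 0.68 ± 0.049 log2 units per log2 unit of Ttr (SE, edgeR adjusted p = 1.77e-23). F5, the coagulation factor V gene, gave 0.55 ± 0.046 (edgeR adjusted p = 6.84e-19), Prlr gave 0.57 ± 0.092 (2.09e-05) and Folr1 gave 0.51 ± 0.058 (4.89e-11). Kl gave 0.35 ± 0.034 (4.85e-15), Col8a1, a short-chain collagen, gave 0.31 ± 0.056 (0.000405), and Mfrp gave 0.24 ± 0.035 (7.63e-07). The slope of 1500015O10Rik, which encodes the secreted peptide precursor augurin, was 0.23 ± 0.051 (0.0389), and it lost its call in 3 of the 5 other fits of these libraries. In GENCODE M21 exons of F5 overlap those of a gene on the opposite strand, and exons of Prlr and of Mfrp those of genes on the same strand. Their counts may thus be shared.

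The remaining calls were Rbm47, an RNA-binding protein of epithelia, with a slope of 0.20 ± 0.043 (edgeR adjusted p = 0.0212), and Fam186a, with a slope of 0.75 ± 0.13 (0.000153). Exons of Rbm47 overlap those of a gene on the same strand, and exons of Fam186a those of an antisense gene, so their counts may be shared too. Fam186a differed little between the groups, with 0.0773, 0.529 and 1.29 CPM in high-Ttr against 0, 0.396 and 1.06 CPM in low-Ttr libraries, and limma voom put its slope at 0.16 (adjusted p = 0.999). Of the other list members, Msx1 had a slope of 0.17 (edgeR adjusted p = 0.0657), Slc13a4 of 0.22 (0.0578) and Enpp2 of 0.12 (0.217). Aqp1, Cldn2, Kcne2, Krt8, Lmx1a, Slco1a5, Sostdc1 and Steap1, a metalloreductase gene, had too few counts in these libraries to be fitted.

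**Figure D3:**
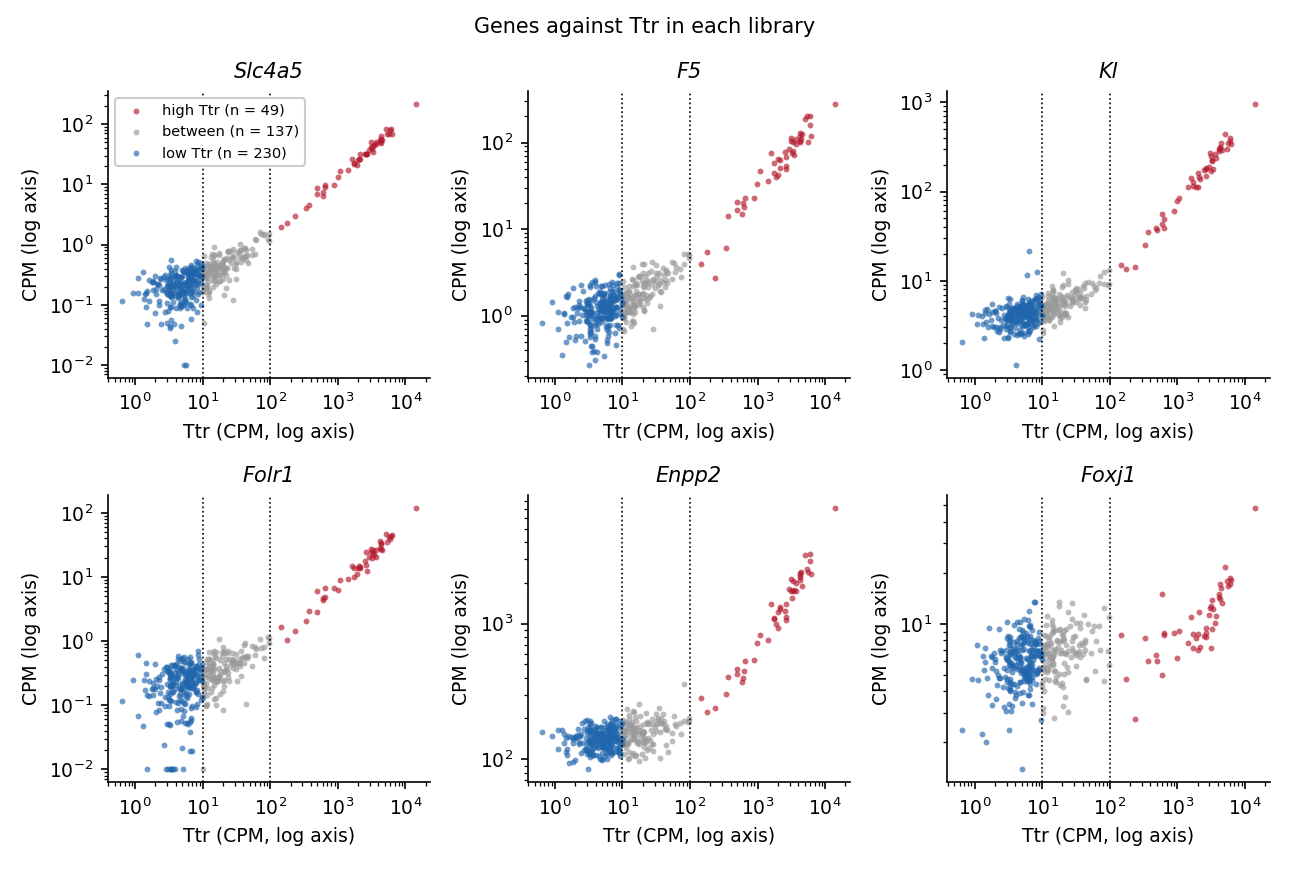
CPM of 6 genes against Ttr CPM on log axes, 1 point per library, with dotted lines at 10 and 100 CPM and red, grey and blue points for the 49 high-Ttr libraries, those between the limits and the 230 low-Ttr libraries; values under 0.01 CPM are drawn at 0.01. Slc4a5, F5, Kl and Folr1 climb already between the limits (slopes of 0.68, 0.55, 0.35 and 0.51), Enpp2 had a slope of 0.12 there (adjusted p = 0.217), and the cilia gene Foxj1 spreads widely at every level of Ttr.

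Across all genes, the high-Ttr libraries had 3784 genes higher (16.7% of 22721) and 3378 genes lower (14.9%) than the low-Ttr libraries at an edgeR adjusted p under 0.05, with generation as a term. The groups were made from Ttr measured in the same libraries, so these p-values weigh the distance between 2 such groups against the spread between libraries. A gene could also pass the filter on low counts through the high-Ttr libraries alone, so counts of genes called higher are descriptions. The median log2 difference was 0.25 among the genes called higher and -0.093 among those called lower. Of all genes fitted, 1.62% were called and more than 2-fold higher, 0.0528% (12 genes) were called and more than 2-fold lower, and 0.546% were called and more than 4-fold higher. Of the called genes 52.8% were higher, and 71.7% when totals without the choroid plexus genes replaced the TMM factors.

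Genes of stromal fibroblasts, and some genes of vessels with pores, moved in the same direction with smaller differences. Whether their RNA came from the choroid plexus was not tested. Of 18 genes of stromal and meningeal fibroblasts 17 rose and none fell, with a median log2 difference of 0.50 beside -0.0095 over all genes. The main fit called 16.7% of all genes higher and 14.9% lower. Ogn, a small matrix proteoglycan, had 0.966, 5.0018 and 12.5 CPM at the lowest, median and highest high-Ttr library, against 0.559, 1.36 and 7.12 CPM in low-Ttr libraries (log2 1.96 ± 0.074, edgeR adjusted p = 9.04e-76). Dcn, the decorin gene, had 2.56, 7.82 and 22.5 CPM against 1.02, 2.99 and 18.6 CPM (log2 1.45 ± 0.081, edgeR adjusted p = 7.91e-46). The groups overlapped in both genes, with 13 and 4 high-Ttr libraries above all low-Ttr ones. Without the outlying libraries 9 of the 18 stromal genes rose and none fell (median log2 0.29), in a fit that called 7.12% of all genes higher and 2.17% lower.

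Capillary genes were taken as 2 lists, by vessel type. Beside them, 16.7% of all genes were called higher and 14.9% lower in the main fit. Of 8 fitted genes of fenestrated endothelium, whose pores the choroid plexus capillaries have, 4 rose and none fell, with a median log2 of 0.22, or 0.10 without the outlying libraries. Plvap, the protein of the pore diaphragm, had 1.98, 6.47 and 14.4 CPM in high-Ttr against 1.802, 4.46 and 8.91 CPM in low-Ttr libraries (edgeR adjusted p = 2.04e-12). Esm1, a secreted endothelial proteoglycan, differed by a log2 of 1.09 ± 0.12 (edgeR adjusted p = 6.27e-15), whereas Vwf, the von Willebrand factor gene, had medians of 20.5 and 19.4 CPM and did not pass (0.959). Of 11 genes of blood-brain barrier endothelium 4 rose, or 1 without the outlying libraries, and their median log2 was 0.043. Whether the 2 vessel lists differed from each other was not tested.

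Immune genes of the brain borders were higher mainly through the class II antigen presentation genes, which were picked out after their values were seen. Of 11 fitted border macrophage genes 6 rose and 1 fell, with a median log2 of 0.27. In the low-Ttr libraries alone 5 members passed the filter on low counts. Others could pass it through the high-Ttr libraries, so these counts are a description. Without the outlying libraries 4 rose and none fell, and the median log2 was 0.050. H2-Aa, a class II chain, had a median of 0.976 CPM in high-Ttr and 0.118 CPM in low-Ttr libraries (log2 3.16 ± 0.14). Cd74, the invariant chain, had 1.85 and 0.378 CPM (log2 2.34 ± 0.12, edgeR adjusted p = 2.69e-50). Mrc1, the mannose receptor of border macrophages, had 2.77 and 2.27 CPM, a log2 difference of 0.27 ± 0.062 (0.00015), and its difference was 0.17 (edgeR adjusted p = 0.2) without the outlying libraries. Of 8 microglial genes none rose and 2 fell, and none passed the test without the outlying libraries. The shares over all genes in the main fit were 16.7% higher and 14.9% lower. P2ry12, a purine receptor of microglia, fell by 0.13 on the log2 scale (edgeR adjusted p = 0.00222), and Tmem119, another of their defining genes, had medians of 9.96 CPM in high-Ttr and 9.83 CPM in low-Ttr libraries.

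Genes of the ependyma, the ciliated lining of the ventricle next to the choroid plexus, rose in 18 of 24 members and fell in none, with a median log2 difference of 0.63. In that fit 16.7% of all genes were called higher and 14.9% lower. Foxj1, the master regulator of motile cilia, had 2.74, 9.29 and 48.3 CPM at the lowest, median and highest high-Ttr library, against 1.39, 5.95 and 13.5 CPM in low-Ttr libraries (log2 0.87 ± 0.072, edgeR adjusted p = 1.66e-25). Cfap126, a protein of the cilia base, differed by 1.29 ± 0.08 (1.7e-39). Choroid plexus epithelial cells themselves bear cilia. Without the outlying libraries 11 of the 24 genes rose and none fell, with a median log2 of 0.23.

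Not every ependymal gene passed the test. Ccdc153 had medians of 2.42 CPM in high-Ttr and 2.41 CPM in low-Ttr libraries (edgeR adjusted p = 0.474), and Tmem212 had 1.68 and 1.45 CPM (0.231). None of the 11 genes of the neurogenic niche beside the ventricle passed the test, and Dlx2, a homeobox factor of neuroblasts, had medians of 4.48 and 4.37 CPM. With mean scores of the ependymal, hippocampal, thalamic and cortical lists as covariates all 11 were lower, where 10.1% of all genes were called higher and 7.81% lower.

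Genes of regions around the striatum gave mixed counts, beside 16.7% of all genes called higher and 14.9% lower in the main fit. Of 18 fitted hippocampal genes 8 rose and 1 fell, with a median log2 of 0.30, and 2 rose and none fell without the outlying libraries (median log2 -0.015). Summed over the list, they had medians of 976.7 CPM in high-Ttr and 961.4 CPM in low-Ttr libraries, and no high-Ttr library lay above all low-Ttr ones. The median log2 was 0.31, 0.47 and -0.17 in generations 21, 22 and 23. Dsp, the desmoplakin gene, which marks granule cells of the dentate gyrus and is also made by epithelia, had 0.832, 9.70 and 54.9 CPM in high-Ttr libraries, against 0.102, 1.17 and 30.9 CPM in low-Ttr libraries (log2 3.05 ± 0.14, edgeR adjusted p = 2.37e-60). It was above the low-Ttr median in 48 of 49 high-Ttr libraries, but only 2 lay above all low-Ttr libraries. Of 12 cortical genes 1 rose and 2 fell, and Tbr1, a transcription factor of cortical projection neurons, had an edgeR adjusted p of 0.718.

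Genes of the thalamus and habenula rose in 13 of 17 fitted members and fell in 1, but 1 library carried most of this. The shares over all genes were 16.7% higher and 14.9% lower. Male generation 21 replicate 35, with 234.9 CPM of Ttr, held 909 CPM of the thalamic kinase gene Prkcd, and the median over high-Ttr libraries was 6.63 CPM, against 4.96 CPM in low-Ttr libraries. Summed over the list, this library gave 4947 CPM, the next highest high-Ttr library, female generation 21 replicate 29, gave 1041 CPM, and the medians were 397.97 CPM in high-Ttr and 386.4 CPM in low-Ttr libraries. Without replicate 35, 6 genes rose and 1 fell (15.7% of all genes were called higher and 14.3% lower in that fit), and without the outlying libraries 2 rose and none fell. The median log2 was 1.09, 0.11 and 0.0034 in generations 21, 22 and 23, beside 4.31, 4.28 and 3.9998 for the epithelium list.

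A test of the difference between generations gave the same picture. Of 22721 genes 0.59% differed between generations in the distance of the groups (edgeR quasi-likelihood test with 2 degrees of freedom), and 8 genes (0.0352%) did so without male generation 21 replicate 35. Prkcd had an interaction p of 4.88e-11 (edgeR, adjusted), and 0.764 without that library. Among the epithelial genes named here none passed this test.

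**Figure D4:**
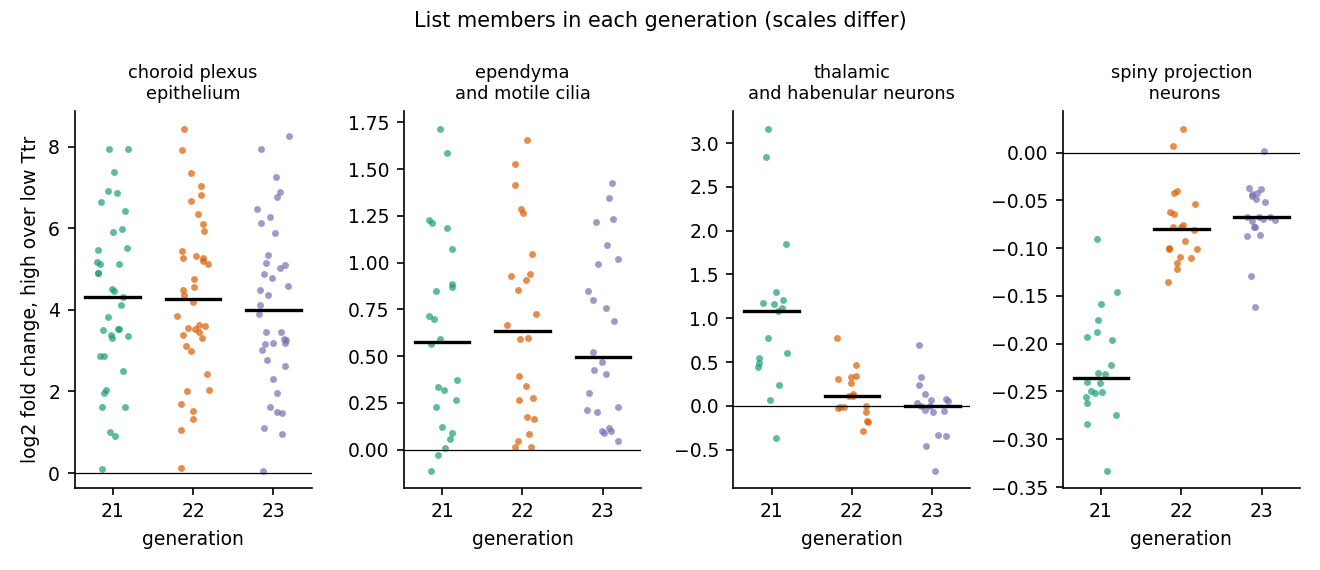
Log2 fold changes of list members, high-Ttr over low-Ttr libraries, fitted in each generation alone, with 1 point per gene, bars at the medians and a different scale in each panel. The epithelium list has medians of 4.31, 4.28 and 3.9998 in generations 21, 22 and 23, the thalamic list 1.09, 0.11 and 0.0034, and the spiny projection neuron list -0.24, -0.080 and -0.067.

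Genes of the striatal neurons were slightly lower in high-Ttr libraries. Of 20 genes of spiny projection neurons 16 fell and none rose, with a median log2 difference of -0.12. Beside them, 14.9% of all genes were called lower and 16.7% higher. Drd1, the D1 dopamine receptor, had 133.6, 293.4 and 399.6 CPM at the lowest, median and highest high-Ttr library, against 60.6, 312.1 and 386.3 CPM in low-Ttr libraries (log2 -0.13 ± 0.04, edgeR adjusted p = 0.00506). Penk, the enkephalin precursor gene of the D2 class, had 366.8, 701 and 999 CPM against 128.9, 768 and 1173 CPM (log2 -0.14 ± 0.046, 0.00888). The groups overlapped throughout, and no member of the list passed the test without the outlying libraries (median log2 -0.034). With the 4 list scores as covariates the direction turned: 2 members were higher, none was lower and the median log2 was 0.035. Within generation 21 alone 15 members fell, where 7.11% of all genes were called lower, and within generations 22 and 23 none did, where 2.53% and 3.51% were.

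Glial genes differed little, in a fit that called 16.7% of all genes higher and 14.9% lower. Of 10 astrocyte genes 4 rose and 2 fell, with a median log2 of 0.0079, and Slc1a2, the glial glutamate transporter, had medians of 3458 CPM in high-Ttr and 3749 CPM in low-Ttr libraries (log2 -0.12 ± 0.019, edgeR adjusted p = 1.76e-08). None of 10 oligodendrocyte genes passed the test, and Mbp, the myelin basic protein gene, had 1631 and 1604 CPM. Without the outlying libraries 1 astrocyte gene fell and none rose.

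**Figure D5:**
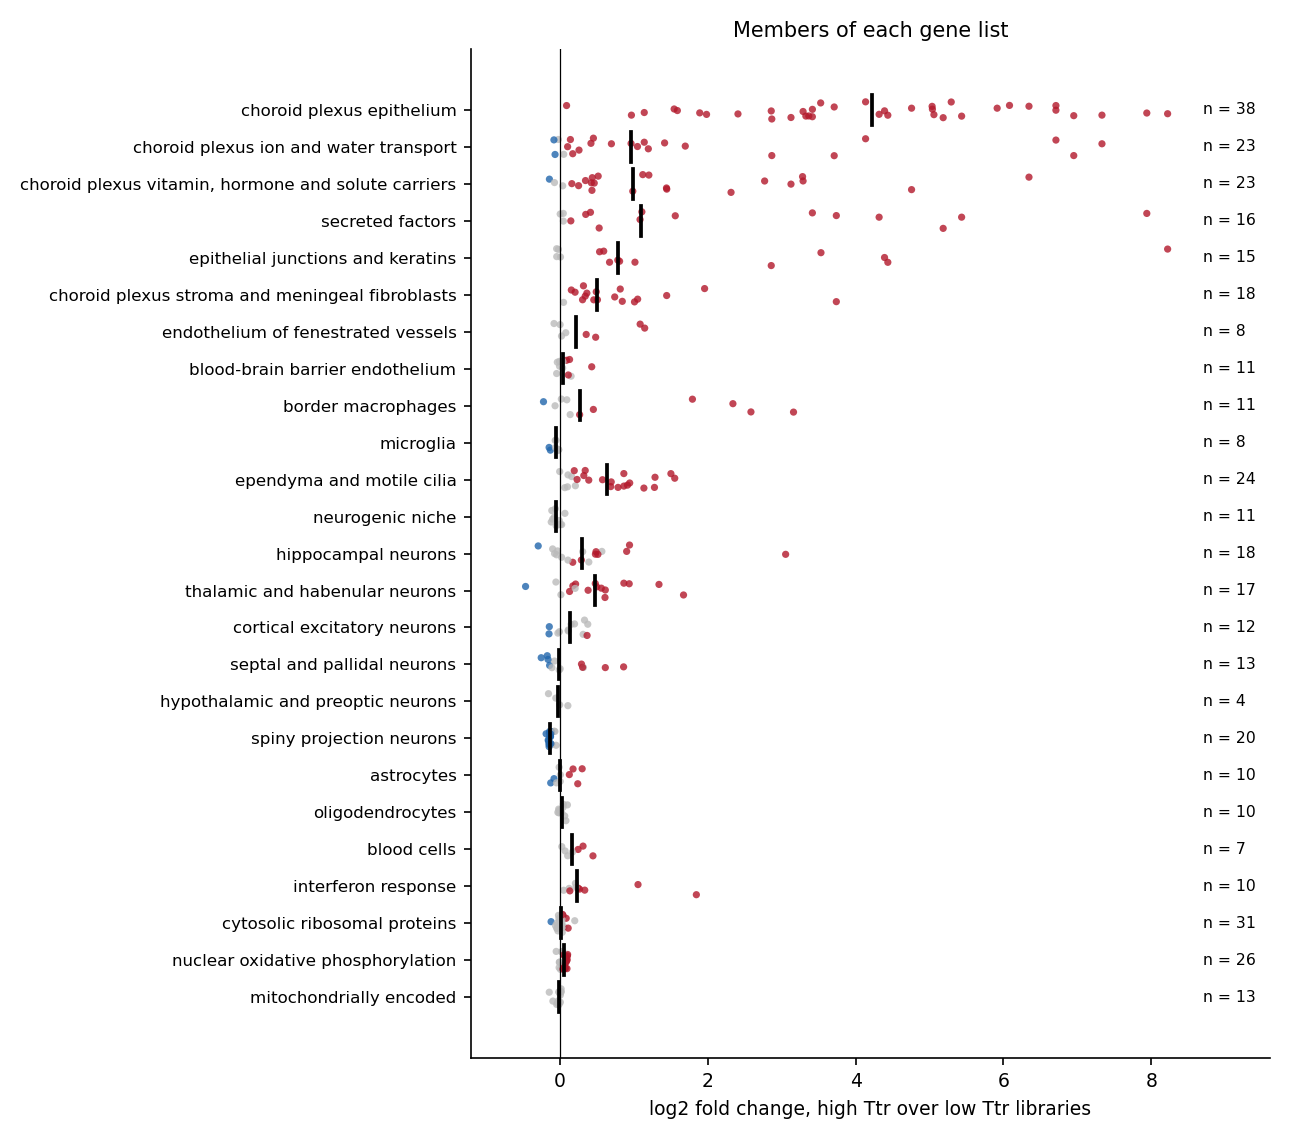
Log2 fold change of each fitted member of 25 gene lists, high-Ttr over low-Ttr libraries, with red points for an edgeR adjusted p under 0.05 and higher, blue for lower and grey for the rest; black bars are list medians and n counts the members. The epithelium list lies far to the right at a median of 4.23, the other choroid plexus lists, border macrophages and ependyma lie between 0.22 and 1.10, the thalamic and hippocampal lists lie at 0.48 and 0.30, and the spiny projection neuron list lies at -0.12.

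In the main fit genes called lower were nearly as many as those called higher, but few of them were far apart. Without the outlying libraries 502 genes were lower and 1646 higher. Among the 10 named genes with the largest log2 difference downwards, Gm10800, Car9 and C1qtnf5 led. Gm10800 had a log2 of -1.10 although its median was 1.84 CPM in high-Ttr and 1.46 CPM in low-Ttr libraries, and its highest value was 4.03 CPM in high-Ttr and 246.2 CPM in low-Ttr libraries. It lost its call with DESeq2 (log2 -0.46, adjusted p = 0.0534), with limma voom (-0.083, 0.808) and in edgeR without the outlying libraries (-1.23, 0.0799). C1qtnf5, a complement-like secreted protein gene, had 0.799, 2.10 and 5.25 CPM at the lowest, median and highest high-Ttr library, against 1.96, 3.92 and 6.56 CPM in low-Ttr libraries (log2 -0.79 ± 0.057, edgeR adjusted p = 9.81e-32). Its exons overlap those of Mfrp on the same strand in GENCODE M21, and Mfrp had medians of 39.3 CPM in high-Ttr and 1.42 CPM in low-Ttr libraries, so reads of one can be counted for the other, which was not tested. Car9, a carbonic anhydrase gene, had medians of 0.955 and 1.46 CPM (log2 -0.98 ± 0.24, 0.000394). Car9 lost its call with the marker scores as covariates (log2 -0.75, edgeR adjusted p = 0.0524). In generations 21, 22 and 23 alone it lost it too (log2 -0.85, -0.98 and -1.13, edgeR adjusted p = 0.1, 0.114 and 0.0904).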

How the data were processed

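RNA of 416 striatum samples, labelled as 1 per animal, was measured. Per the labels' protocols, total RNA was depleted of ribosomal RNA, made into stranded libraries and read in pairs of 100 bp, with ERCC spike-ins that were not used for normalization. The deposited values are estimated counts per Ensembl gene ID, in 1 column per animal. The aligner, the counting tool, the build, the annotation and the use of strand behind them are not given in the sources used here. Of the values 23.8% were not whole numbers, and rounding them moved 0.005% of the total count. No rows of spike-ins were found. Names were taken from GENCODE M21 by gene ID, which matched 46005 of 46517 IDs (98.9%).

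Groups were made from Ttr CPM (count over column total), with limits of 100 and 10 CPM. The members, the 25 gene lists and the tests were chosen with earlier results of these data known. Genes were kept with edgeR's filterByExpr (minimum count 10), and tested in edgeR 4.0.16 under R 4.3.3 (TMM scaling, robust glmQLFit, glmQLFTest) with generation as a term. Ttr was left out of the tests. The main fit compared high-Ttr and low-Ttr libraries. A second fit took log2 Ttr CPM as a slope in the libraries between the limits, and another tested the group by generation terms with 2 degrees of freedom. P-values were Benjamini-Hochberg adjusted over all genes of a fit and called under 0.05, two-sided. CPM in the text are not TMM-scaled and not per gene length, so levels are not compared between genes. The fits were tested on simulated data with known folds.

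A library was outlying where its total was under 0.5 of the series' median, or where its median correlation to all others fell short of the series' median by over 4 median absolute deviations (times 1.4826). It went against its sex label where Xist was under 100 CPM in a female library or above it in a male one. Genes are named by rule: the 20 largest differences upwards and 10 downwards among called genes with a median of at least 1 CPM in a group, the epithelium list, the first 6 measured members of other lists, the 10 smallest slope p and the 5 smallest interaction p. Not all of them appear in the text. Abca4, Atp1b1, Bst2, Cd74, Cldn3, Col4a3, Col8a2, Crhr2, Cst3, Gmnc, H2-Aa, Ifi27, Kcna1, Slc31a1 and Vwf fall outside this rule and were chosen after their values were seen. Promoters come from RefSeq on GRCm38.p6. Alternatives were DESeq2 1.42.0, limma voom 3.58.1, RLE factors, totals without choroid plexus genes, other filters, covariates and limits, a test against a fold of 1.2, single generations, and fits without the libraries described above. Leaving out each high-Ttr library in turn used limma voom.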

Additional observations from a re-analysis of the deposited data

Results flagged for a closer look

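The distance between high-Ttr and low-Ttr libraries differed between generations for 5 genes described here, by the edgeR quasi-likelihood test of the group by generation terms. Gm43398, with the 4th smallest p of this test, also passed and is not described. The adjusted p was 4.88e-11 for Prkcd, 1.1e-09 for Grid2ip, 7.12e-09 for Ramp3, 1.91e-06 for Tcf7l2 and 0.0236 for Lef1. Prkcd, Tcf7l2 and Lef1 are genes of thalamic relay neurons and stand on the thalamic list, and Grid2ip and Ramp3 were named for their small p of this test.

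All 5 genes had their highest high-Ttr value in male generation 21 replicate 35. That library held 909 CPM of Prkcd, 223.02 of Tcf7l2, 80.6 of Lef1, 68.8 of Grid2ip and 72.99 of Ramp3. The medians of Grid2ip were 1.44 CPM in high-Ttr and 1.42 CPM in low-Ttr libraries, and those of Ramp3 were 1.72 and 1.79 CPM. Without this library, an alternative chosen after seeing the data, the interaction p (edgeR, adjusted) was 0.764 for Prkcd, 0.161 for Grid2ip, 0.548 for Ramp3, 0.648 for Tcf7l2 and 0.832 for Lef1. The log2 difference of the groups was then 0.39 for Prkcd (adjusted p = 0.00737), 0.22 for Tcf7l2 (0.000639), 0.38 for Lef1 (8.85e-19), 0.18 for Grid2ip (0.168) and 0.14 for Ramp3 (0.203).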

How the results depend on the processing

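The epithelium list kept a median log2 difference of at least 3.29 in every alternative for which it was computed. The counts of all genes moved more. The numbers called higher and lower were 3784 and 3378; they were 2292 and 1774 with the marker scores as covariates, 1646 and 502 without the outlying libraries, 2013 and 574 in generation 22 alone, 1842 and 795 in generation 23 alone, and 1113 and 7 against a fold of 1.2. Genes called lower numbered 1820 with totals in place of TMM, 1577 in generation 21 alone and 2226 with an upper limit of 50 CPM. Leaving out 1 high-Ttr library at a time gave 3278 to 3622 higher and 2816 to 3547 lower, with both lowest counts without male generation 21 replicate 26. Without libraries against their sex label the counts were 3684 and 3866. The slope called 3 genes under the lower limit in place of 10. Otx2 was among them (slope 0.33, edgeR adjusted p = 0.000239), the only 1 of 27 fitted epithelium list members called there. None of the 8 list members called between the limits was called again. Rbm47 (edgeR adjusted p = 0.071) and Fam186a (0.966) lost their calls too. The interaction called 0.59% of genes, and 8 genes without male generation 21 replicate 35 and 35 without the outlying libraries. The generation share had p = 0.0173 with an upper limit of 50 CPM.

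Signs turned with the marker scores as covariates for Ccdc153 (-0.75), Tmem212 (-0.69), Drd1 (0.035), Drd2 (0.080), Penk (0.010), Prkcd (-0.0068), Tcf7l2 (-0.037), Grid2ip (-0.22) and Ramp3 (-0.12). They also turned for Grid2ip (-0.13) and Ramp3 (-0.088) without the outlying libraries, for Gm10800 in generation 21 alone (0.051), for Grid2ip in generations 22 (-0.092) and 23 (-0.23) alone, and for Ramp3 in generation 23 alone (-0.17). Ccdc153 and Tmem212 are on the ependymal list and Prkcd and Tcf7l2 on the thalamic list, whose means are among these covariates. Each of these genes is thus part of a score that it was adjusted for. The cause of the turns was not tested. In the groups' comparison 2367 values of named genes under an alternative kept direction and call, 6 gained the call, 15 turned and the rest lost the call. In the slope 528 kept both, 12 lost the call and 8 gained it.

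No paired analysis was possible because the labels give every library its own animal and replicate numbers only name samples. Female generation 21 replicate 50 and male generation 21 replicate 60, both between the limits, had the highest correlation of any pair (0.9955). The male-labelled one went against its sex label. Whether both came from 1 animal was not tested. Without 1 of them the slope between the limits still called 10 genes higher. Precision rests on the number of libraries, and genes near 0 CPM in low-Ttr libraries have folds that depend on few counts.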

Other observations

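Of the genes called and more than 4-fold higher in high-Ttr libraries, 40 stood on a gene list and 84 on none. The largest of those 84 by the naming rule were Wfdc2, a secreted protease inhibitor-like protein of epithelia, Cdh3, the P-cadherin gene, Wdr72, Prr32 and Oca2, a melanosome membrane protein, with log2 differences of 6.61, 6.54, 6.45, 6.19 and 5.03. Cdh3 had 0.295, 3.59 and 15.9 CPM at the lowest, median and highest high-Ttr library, against 0, 0.044 and 0.34 CPM in low-Ttr libraries. Prr32 had 0.334, 4.69 and 35.4 CPM against 0, 0.0515 and 0.308 CPM, and its groups did not overlap. Inside the high-Ttr libraries Oca2 had a slope of 1.15 ± 0.068 on log2 Ttr and Wdr72 one of 0.95 ± 0.03.

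Further unlisted genes, chosen after their values were seen, belong to basement membranes, cilia and signalling. Abca4, a retinoid transporter known from photoreceptors, had medians of 24.0 CPM in high-Ttr and 1.93 CPM in low-Ttr libraries (log2 3.86 ± 0.086), and 43 of 49 high-Ttr libraries lay above all low-Ttr ones. Gmnc, a regulator of multiciliated cells, had 6.18 and 0.353 CPM (log2 4.07 ± 0.0999). Among collagen genes, Col8a2 differed by 3.46 and Col4a3, a basement membrane chain, by 3.16. Crhr2, a receptor of corticotropin-releasing factor family peptides, had 3.14 and 0.528 CPM (log2 2.72 ± 0.096).

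Of 10 interferon response genes 6 rose and none fell, with a median log2 of 0.23, and 2 rose without the outlying libraries. Bst2, tetherin, had medians of 1.1999 CPM in high-Ttr and 0.392 CPM in low-Ttr libraries (log2 1.85 ± 0.093, edgeR adjusted p = 3.69e-53), and Ifi27 had 13.3 and 6.97 CPM (1.06 ± 0.072, 6.77e-35). Irf7, a regulator of the interferon response, differed by 0.25 ± 0.057 (0.000168), and by 0.11 (adjusted p = 0.43) without those libraries. Of 26 nuclear genes of oxidative phosphorylation 17 rose and none fell, by a median log2 of 0.058, and 1 rose without those libraries; none of the 13 mitochondrially encoded genes passed the test. Over all genes 16.7% were higher and 14.9% lower. Of 31 cytosolic ribosomal protein genes 4 rose and 1 fell, and 9 rose and none fell with totals without the choroid plexus genes in place of TMM factors. Of 7 blood cell genes 3 rose, or none without the outlying libraries, of 13 septal and pallidal genes 4 rose and 4 fell, and of 4 fitted hypothalamic genes none passed.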
